A study of Mus musculus with 9 samples.

Results

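The hepatic microRNAs miR-33, miR-103, miR-107 and miR-802, which act on sterol and insulin genes, were examined in mouse liver. All rows of the count table whose names begin with mmu-miR-33-, mmu-miR-103-, mmu-miR-107- or mmu-miR-802- were taken, which gave 7 of 1140 rows: mmu-miR-33-5p, mmu-miR-33-3p, mmu-miR-103-3p, mmu-miR-107-3p, mmu-miR-107-5p, mmu-miR-802-5p and mmu-miR-802-3p, named without the species prefix in what follows and called the members. The livers came from male C57BL/6 mice that were 8 weeks old at the start, and no allele is named in the labels. The control group (n = 3) was injected with normal saline, the TAA group (n = 3) with thioacetamide, a hepatotoxin used to induce fibrosis, and injections lasted 8 weeks in both. The recovery group (n = 3) had the same thioacetamide course and then 8 weeks without it, so recovery and greater age cannot be told apart. Each library was made from the liver of a different mouse.

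MicroRNAs are cut from hairpin transcripts, and either strand of the hairpin, called the 5p or the 3p arm, can be loaded into the silencing complex. The loaded arm pairs with target mRNAs through its seed, bases 2 to 8 from the 5′ end. miR-33 lies in an intron of Srebf2, the gene of a transcription factor that switches on cholesterol synthesis and uptake, and represses the cholesterol exporter Abca1. miR-103 and miR-107 lie in introns of the pantothenate kinase genes Pank3, Pank2 and Pank1, whose products start coenzyme A synthesis, and both are known to lower insulin sensitivity, with caveolin-1 as a target. miR-802 is enriched in liver, rises in livers of obese mice and is known to impair glucose tolerance.

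The mature sequences are shown because they decide which of these miRNAs can be told apart and which share targets. They are from RefSeq (GRCm38.p6), where all 7 rows were matched by name, with the seed in capitals:
miR-103-3p: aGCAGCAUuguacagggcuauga
miR-107-3p: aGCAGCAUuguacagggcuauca
miR-802-5p: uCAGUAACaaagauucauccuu
miR-802-3p: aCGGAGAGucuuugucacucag
miR-33-5p: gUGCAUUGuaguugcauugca
miR-33-3p: cAAUGUUUccacagugcaucac

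miR-103-3p and miR-107-3p are both 23 bases long, share the seed GCAGCAU and differ by a single substitution, G22C, counted from the 5′ end of miR-103-3p. A read that ends before base 22 therefore carries nothing to separate them, and how such reads were assigned is not given in the sources used here, so the split of counts between the 2 rows is uncertain. No row of the table came within 2% of the counts of either of them, but that check finds only rows with nearly the same counts. It cannot show how shared reads were divided. The seeds of miR-33-5p, miR-33-3p, miR-802-5p and miR-802-3p were shared with no other mouse miRNA of the RefSeq table.

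The hairpins are shown to place both arms of each miRNA, with the arms in capitals. Mir33 is at chr15:82198122-82198190 on the plus strand, in an intron of Srebf2. Mir107 is at chr19:34820687-34820773 on the minus strand, in an intron of Pank1. Mir802 is at chr16:93369720-93369816 on the plus strand and lies in no annotated gene.
Mir33: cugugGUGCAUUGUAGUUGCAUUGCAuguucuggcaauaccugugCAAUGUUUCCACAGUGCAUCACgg
Mir107: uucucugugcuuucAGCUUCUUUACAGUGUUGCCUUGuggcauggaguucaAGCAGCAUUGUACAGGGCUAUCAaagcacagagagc
Mir802: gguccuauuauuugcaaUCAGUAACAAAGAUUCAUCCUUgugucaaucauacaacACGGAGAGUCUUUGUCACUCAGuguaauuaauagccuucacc

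The mature miR-103-3p can come from either of 2 hairpins, Mir103-1 at chr11:35782396-35782481 in an intron of Pank3 and Mir103-2 at chr2:131288052-131288137 in an intron of Pank2, both on the plus strand. The 3p arm is the same in both hairpins, so its counts cannot be divided between the 2 genes. All positions are on GRCm38, the build called mm10, and the 4 host genes are on the same strand as their hairpins.

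The libraries held 9071847 to 12983378 miRNA counts, and these 7 rows took 0.0779% to 0.140% of them. Values are given on 2 scales because they lead to different directions. TPM is the deposited value, the count per 1000000 counts of the library. CPM is also per 1000000 counts, but each library size was multiplied by a TMM factor, which centres the bulk of the miRNAs. For CPM the factors were computed once over all 9 libraries. They were 0.738 to 0.792 in control, 1.43 to 1.63 in TAA and 0.766 to 0.887 in recovery libraries. The log2 fold changes with TMM scaling used factors computed anew within the 6 libraries of each comparison. They can therefore differ from the ratios of mean CPM. Taken over the tested miRNAs, the median difference between the log2 fold changes on library totals and on the TMM scale was 1.12 for TAA against control, -0.86 for recovery against TAA and 0.18 for recovery against control. Neither scale has a term for length, and mature miRNAs are of similar length.

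miR-103-3p was the most abundant of these miRNAs, at rank 35 to 45 of the rows of a library, and miR-107-3p followed at rank 69 to 100. miR-802-5p ranked 210 to 254 and miR-802-3p 243 to 321. The mean level in control livers was 843 CPM for miR-103-3p, 205 CPM for miR-107-3p, 7.61 CPM for miR-802-5p, 3.57 CPM for miR-802-3p, 0.516 CPM for miR-33-3p and 0.385 CPM for miR-33-5p. This order held in every library between miR-103-3p, miR-107-3p, miR-802-5p and miR-802-3p, while both miR-33 arms overlapped with each other. The least abundant row, miR-107-5p, had 1 count in TAA replicate 1 and 0 counts in the other 8 libraries.

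By edgeR's quasi-likelihood test with TMM scaling, none of the members that passed the count filter was called, where a call needed an FDR under 0.05 together with a 2-fold change in either direction. In TAA vs control, 0 of 5 tested members were called, where 41.7% of the 420 tested miRNAs were called. In recovery vs TAA, 0 of 5 were called against 24.8% of 440, and in recovery vs control 0 of 4 against 11.3% of 391. At an FDR under 0.05 alone the counts were 2, 1 and 0 members, where 58.3%, 39.1% and 14.1% of all tested miRNAs passed. The member counts were the same at an unadjusted p under 0.05, and DESeq2 called 0 in each comparison. With the count filter of edgeR, miR-33-5p and miR-107-5p were tested in no comparison. miR-33-3p passed that filter only through the TAA group, where it is high, so its tests had to lean towards a difference and its calls are not read as support.

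On library totals the count of called members changed. In TAA vs control both miR-802 arms were called higher in TAA, where 58.3% of all tested miRNAs were called. For recovery vs TAA miR-802-3p was called lower in recovery, where 47% of all were called. miR-33-3p also met the thresholds in both, with the limit given above. In recovery vs control 0 of 4 were called, with 0 at an unadjusted p under 0.05, where 12.5% of all were called.

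**Figure D1:**
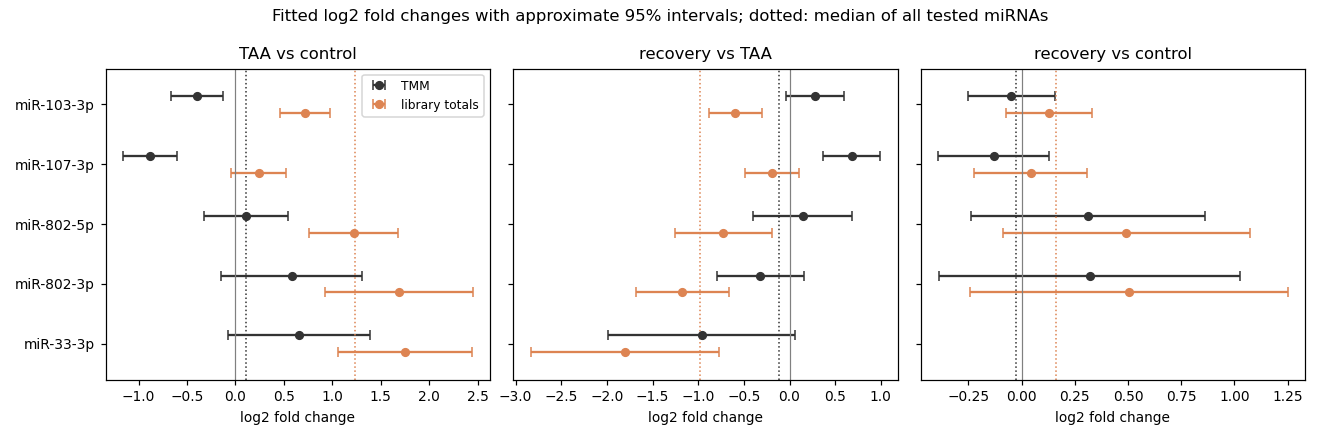
Fitted log2 fold changes (x axis) of 5 mature miRNAs (y axis) in the 3 comparisons, with TMM scaling (black) and library totals (orange). Points are edgeR estimates, bars are approximate 95% intervals, and dotted lines mark the median of all tested miRNAs on each scale; miR-103-3p and miR-107-3p lie on opposite sides of 0 under the 2 scales in each comparison, and miR-33-3p was not tested in recovery vs control.

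Control replicates 1 to 3 held 8592, 6392 and 6387 counts of miR-103-3p, TAA replicates 12309, 10607 and 8374, and recovery replicates 8855, 8722 and 8315. As TPM these were 662, 623 and 642 in control, 1087, 1169 and 914 in TAA, and 725, 711 and 667 in recovery livers. All TAA livers were above all others on this scale, and all recovery livers were above all control livers. As CPM they were 835, 843 and 850 in control, 759, 716 and 562 in TAA, and 947, 801 and 762 in recovery livers. On that scale the order was turned, with all TAA livers below all others and recovery livers overlapping control.

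The log2 fold change of miR-103-3p in TAA vs control was -0.40 with TMM scaling (SE 0.14, edgeR FDR = 0.0381) and 0.72 with library totals (SE 0.13, edgeR FDR = 0.00183). The value for recovery vs TAA was 0.28 (approximate 95% interval -0.04 to 0.60, edgeR FDR = 0.211) and -0.59 (SE 0.15, edgeR FDR = 0.0101). All 4 values were under 2-fold. In recovery vs control it was -0.05 with TMM scaling (interval -0.25 to 0.16, edgeR FDR = 0.859) and 0.13 with library totals (edgeR FDR = 0.548). Across the alternatives other than library totals, the FDR of miR-103-3p in TAA vs control ran from 0.0236 to 0.170, on both sides of 0.05, and that of the summed miR-103-3p and miR-107-3p counts was 0.0179. The fit of all 9 libraries, which uses the factors of the CPM values, gave -0.31 for miR-103-3p in TAA vs control (SE 0.15, edgeR FDR = 0.0869).

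The counts of miR-107-3p were 2319, 1537 and 1400 in the control livers (replicates 1 to 3), 1948, 1863 and 1616 in the TAA livers, and 2069, 2042 and 1836 in the recovery livers. As TPM these were 179, 150 and 141 in control, 172, 205 and 176 in TAA, and 169, 166 and 147 in recovery livers. TAA and control livers overlapped on this scale, and all recovery livers were below all TAA livers. As CPM they were 226, 203 and 186 in control, 120, 126 and 109 in TAA, and 221, 188 and 168 in recovery livers. All TAA livers were below all control and recovery livers on that scale.

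With TMM scaling the log2 fold change of miR-107-3p in TAA vs control was -0.88 (SE 0.14, edgeR FDR = 0.00161), a level 0.543 times that of control and short of the 2-fold threshold. The increase in recovery vs TAA was 0.68 (SE 0.16, edgeR FDR = 0.0119), or 1.60-fold. With library totals the values were 0.24 (approximate 95% interval -0.05 to 0.52, edgeR FDR = 0.168) and -0.20 (interval -0.49 to 0.10, edgeR FDR = 0.281). In recovery vs control it was -0.13 with TMM scaling (interval -0.39 to 0.13, edgeR FDR = 0.673) and 0.04 with library totals (edgeR FDR = 0.903). The fit of all 9 libraries, which uses the factors of the CPM values, gave -0.79 for miR-107-3p in TAA vs control (SE 0.15, edgeR FDR = 0.00102).

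**Figure D2:**
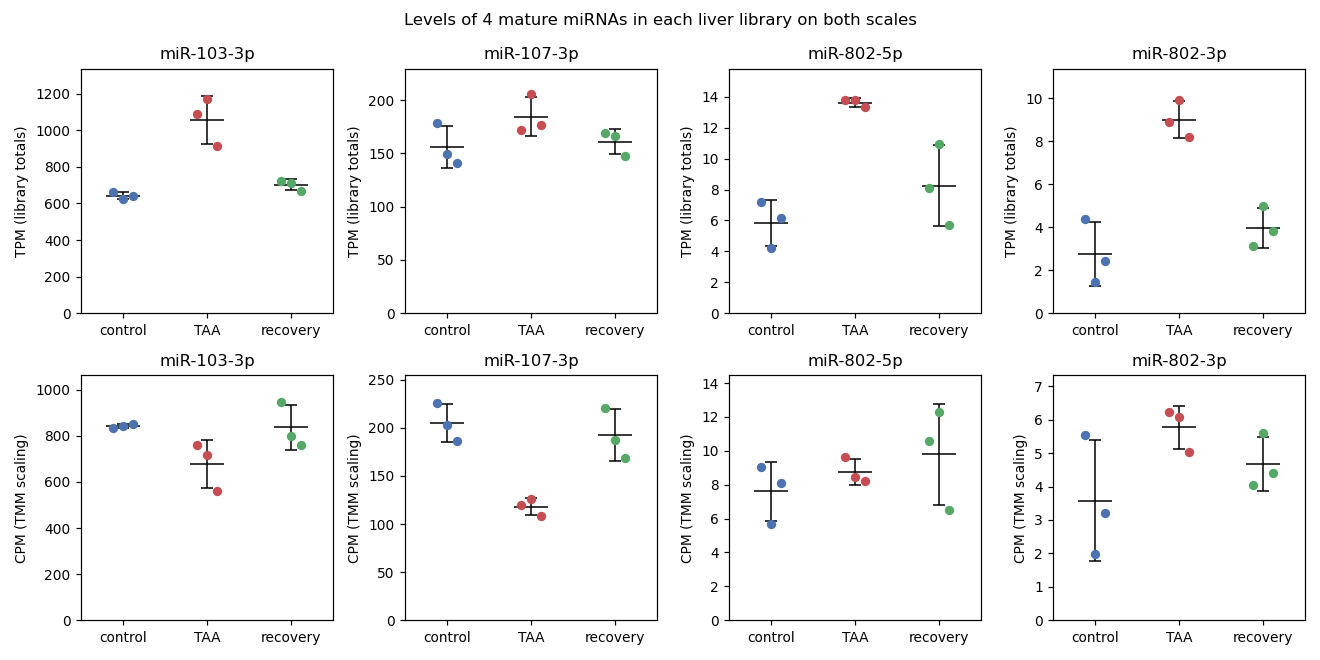
Levels of miR-103-3p, miR-107-3p, miR-802-5p and miR-802-3p in each liver, as TPM (upper row, y axis from 0) and as CPM with TMM scaling (lower row), with each group's 3 livers as points (replicates 1 to 3 from left to right) and the mean ± SD as lines. TAA livers hold the highest mean TPM in all 4 panels of the upper row, whereas in the lower row they hold the lowest mean CPM of miR-103-3p and miR-107-3p. With library totals the median log2 fold change of all tested miRNAs in TAA vs control was 1.23, and 241 of 245 called miRNAs were higher in TAA.

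A change of scale moves all log2 fold changes of a comparison by about the same amount, so the position of a miRNA among all tested miRNAs is nearly fixed by construction and describes it without a choice of scale. By its log2 fold change in TAA vs control, miR-107-3p stood at percentile 20.5 with TMM scaling and 20.7 with library totals, and miR-103-3p at percentile 30.7 on both. miR-802-5p stood at percentile 49.3, miR-802-3p at 63.6 and miR-33-3p at 66.2 with TMM scaling. miR-107-3p and miR-103-3p were thus in the lower part of the distribution, and both miR-802 arms were near or above its middle. miR-33-3p passed the filter only through its high TAA group. Its percentiles in this comparison and in recovery vs TAA had to lean accordingly and are not read as support. For recovery vs TAA, which shares the TAA libraries, the percentiles were 79.1 for miR-107-3p, 67.5 for miR-103-3p, 62.3 for miR-802-5p, 40.9 for miR-802-3p and 20.5 for miR-33-3p. In recovery vs control they ran from 34.0 for miR-107-3p to 77.2 for both miR-802 arms.

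Ratios of counts within a library need no scaling factor, so they compare the members directly. The log2 ratio of miR-103-3p to miR-107-3p was 1.89, 2.06 and 2.19 in the control livers (replicates 1 to 3), 2.66, 2.51 and 2.37 in the TAA livers, and 2.10, 2.09 and 2.18 in the recovery livers. Every TAA liver was above all control and recovery livers, while control and recovery overlapped. In linear terms there were 3.71 to 4.56 counts of miR-103-3p per count of miR-107-3p in control, 5.18 to 6.32 in TAA and 4.27 to 4.53 in recovery livers.

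The mean log2 ratio was 2.04 ± 0.15 (SD, n = 3) in control, 2.51 ± 0.14 in TAA and 2.12 ± 0.05 in recovery livers. The difference of TAA from control was 0.47 (SE 0.12), a 1.38-fold higher ratio, with p = 0.1 by an exact two-sided permutation test and 0.3 after Benjamini-Hochberg adjustment over 24 such tests. The difference of recovery from TAA was -0.39 (SE 0.09, exact permutation p = 0.1, adjusted 0.3), and that of recovery from control was 0.08 (SE 0.09, exact permutation p = 0.5, adjusted 0.8). A p of 0.1 is the smallest that 3 livers against 3 allow, so none of these tests could pass 0.05. The 2 miRNAs have the same seed, and the ratio rests on the single base 22.

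**Figure D3:**
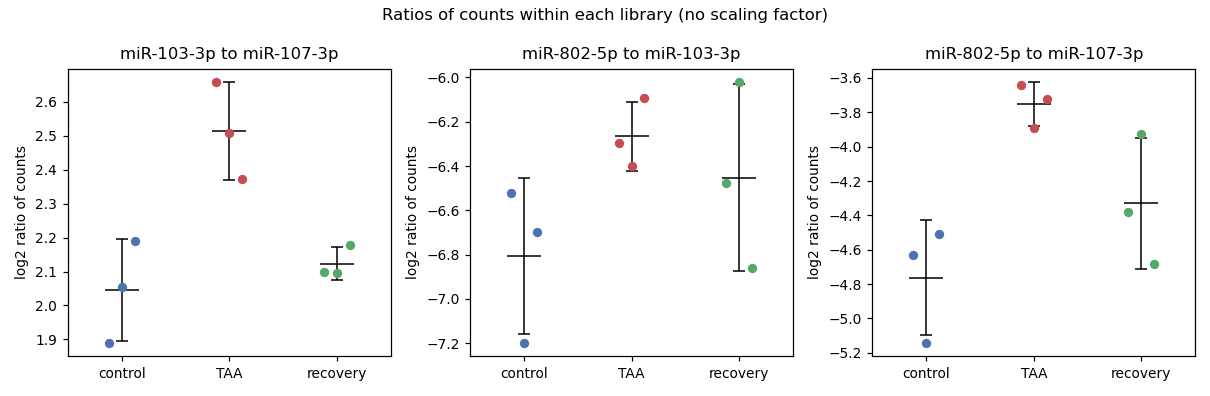
Log2 ratios of counts within each library (y axis) for miR-103-3p to miR-107-3p, miR-802-5p to miR-103-3p and miR-802-5p to miR-107-3p, with livers as points (replicates 1 to 3 from left to right) and group mean ± SD as lines. All TAA livers are above all control livers in each panel; recovery livers overlap control in all 3 and overlap TAA in the middle panel.

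miR-802-5p, the usual guide strand of miR-802, had 93, 43 and 61 counts in the control livers (replicates 1 to 3), 156, 125 and 122 in the TAA livers, and 99, 134 and 71 in the recovery livers. As TPM these were 7.16, 4.19 and 6.13 in control, 13.8, 13.8 and 13.3 in TAA, and 8.11, 10.9 and 5.70 in recovery livers. All TAA livers were above all others on this scale. As CPM they were 9.04, 5.67 and 8.12 in control, 9.62, 8.44 and 8.19 in TAA, and 10.6, 12.3 and 6.50 in recovery livers, and all groups overlapped.

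The log2 fold change of miR-802-5p in TAA vs control was 0.11 with TMM scaling (approximate 95% interval -0.33 to 0.54, edgeR FDR = 0.702) and 1.22 with library totals (SE 0.23, edgeR FDR = 0.00232). The latter equals the median of all tested miRNAs on that scale to within 0.01 (1.23). In recovery vs TAA it was 0.15 with TMM scaling (interval -0.40 to 0.69, edgeR FDR = 0.714) and -0.72 with library totals (SE 0.27, edgeR FDR = 0.0466). In recovery vs control it was 0.31 (interval -0.24 to 0.86, edgeR FDR = 0.618) and 0.49 (interval -0.09 to 1.07, edgeR FDR = 0.407).

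Set against miR-103-3p in the same library, miR-802-5p had a mean log2 ratio of -6.81 ± 0.35 (SD, n = 3) in control, -6.26 ± 0.16 in TAA and -6.45 ± 0.42 in recovery livers. The TAA livers were all above the control livers (difference 0.54, SE 0.22, exact two-sided permutation p = 0.1, adjusted 0.3), while recovery livers overlapped both. Set against miR-107-3p, a ratio chosen after the values were seen, the means were -4.76 ± 0.34, -3.75 ± 0.13 and -4.33 ± 0.38. The TAA livers were again all above the control livers (difference 1.01, SE 0.21, 2.02-fold, exact permutation p = 0.1, adjusted 0.3), and all recovery livers were below all TAA livers (difference -0.58, SE 0.23, exact permutation p = 0.1, adjusted 0.3). The miR-802-5p counts of 43 to 156 per library make these ratios less precise than that of miR-103-3p to miR-107-3p.

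miR-802-3p, the other arm of the hairpin, had 57, 15 and 24 counts in the control livers (replicates 1 to 3), 101, 90 and 75 in the TAA livers, and 38, 61 and 48 in the recovery livers. Its CPM was 5.54, 1.98 and 3.19 in control, 6.23, 6.08 and 5.04 in TAA, and 4.06, 5.60 and 4.40 in recovery livers. On the CPM scale control replicate 1 overlapped the TAA livers, and the other 2 control livers were below every TAA and recovery liver. As TPM the range was 1.46 to 4.39 in control, 8.18 to 9.92 in TAA and 3.11 to 4.97 in recovery livers, so TAA livers were above all others.

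With TMM scaling the log2 fold change of miR-802-3p in TAA vs control was 0.58 (SE 0.37, edgeR FDR = 0.215). Without control replicate 1 it was 1.08 (SE 0.33, edgeR FDR = 0.0354) and met both thresholds; edgeR FDR values ran from 0.0354 to 0.490 when each library was left out in turn. Between recovery and TAA it was -0.32 (SE 0.24, edgeR FDR = 0.333) and in recovery vs control 0.32 (interval -0.39 to 1.03, edgeR FDR = 0.718). With library totals the 3 values were 1.69 (SE 0.39, edgeR FDR = 0.00530), -1.18 (SE 0.26, edgeR FDR = 0.00562) and 0.50 (SE 0.38, edgeR FDR = 0.516). Set against miR-103-3p, a ratio also chosen after the values were seen, the mean log2 ratio of miR-802-3p was -7.98 ± 0.73 (SD, n = 3) in control, -6.86 ± 0.06 in TAA and -7.47 ± 0.35 in recovery livers. The TAA livers were all above control (difference 1.12, SE 0.43, exact permutation p = 0.1, adjusted 0.3), and the recovery livers were all below TAA (difference -0.61, SE 0.21, exact permutation p = 0.1, adjusted 0.3).

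The 5p arm exceeded the 3p arm of miR-802 in each of the 9 libraries. Its share of the counts of both arms was 62.0%, 74.1% and 71.8% in the control livers (replicates 1 to 3), 60.7%, 58.1% and 61.9% in the TAA livers, and 72.3%, 68.7% and 59.7% in the recovery livers. The TAA livers were all below the control livers, although control replicate 1 (62.0%) and TAA replicate 3 (61.9%) were nearly equal, and recovery overlapped both groups. The mean share was 69.3% ± 6.43 (SD, n = 3) in control, 60.3% ± 1.93 in TAA and 66.9% ± 6.50 in recovery livers, and the difference of TAA from control was -9.04 percentage points (SE 3.88, exact two-sided permutation p = 0.1, adjusted 0.3). Exact 95% binomial intervals of the pooled counts, which cover counting error only, were 61.5% to 72.6% in control, 56.4% to 64.0% in TAA and 62.9% to 71.7% in recovery livers.

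**Figure D4:**
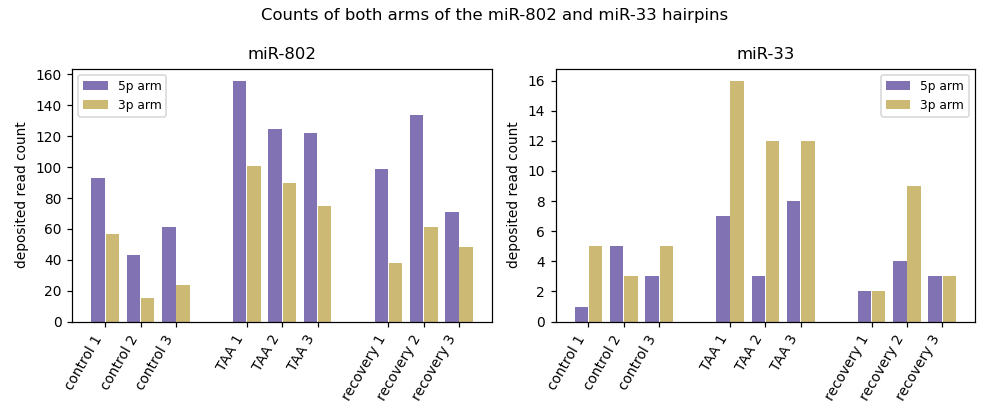
Deposited read counts (y axis, from 0) of the 5p arm (purple) and the 3p arm (yellow) of miR-802 (left) and miR-33 (right) in each library. The 5p arm of miR-802 is the higher one in all 9 libraries, whereas the 3p arm of miR-33 is the higher one in 6, including all TAA libraries, and no miR-33 arm exceeds 16 counts.

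miR-33-5p, the arm known to repress cholesterol export, was close to the detection limit. It had 1, 5 and 3 counts in the control livers (replicates 1 to 3), 7, 3 and 8 in the TAA livers, and 2, 4 and 3 in the recovery livers, and 1 count was worth 0.0770 to 0.110 TPM. As TPM the level was 0.289 ± 0.205 (SD, n = 3) in control, 0.607 ± 0.271 in TAA and 0.243 ± 0.0811 in recovery livers, and as CPM 0.385 ± 0.281, 0.390 ± 0.171 and 0.285 ± 0.0774. TAA and control livers overlapped on both scales, and recovery livers were below all TAA livers as TPM but not as CPM. Its log2 ratio to miR-103-3p was -11.17 ± 1.19 in control, -10.73 ± 0.81 in TAA and -11.31 ± 0.44 in recovery livers, with overlap in each comparison (exact two-sided permutation p = 0.4 to 0.8). A difference between the groups in this ratio was not detectable at this depth.

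miR-33-3p, the opposite arm, had 5, 3 and 5 counts in the control livers (replicates 1 to 3), 16, 12 and 12 in the TAA livers, and 2, 9 and 3 in the recovery livers. TAA livers were above all control livers both as TPM (1.31 to 1.41 against 0.292 to 0.503) and as CPM (0.806 to 0.987 against 0.396 to 0.666). Recovery livers were below all TAA livers as TPM, but recovery replicate 2 overlapped them as CPM. With TMM scaling the log2 fold change was 0.66 in TAA vs control (SE 0.37, edgeR FDR = 0.179) and -0.96 in recovery vs TAA (SE 0.52, edgeR FDR = 0.180). Without recovery replicate 2 the latter was -1.78 (SE 0.51, edgeR FDR = 0.0464), past both thresholds but with the same limit of the filter and with 2 and 3 counts in the remaining recovery livers; edgeR FDR values ran from 0.0464 to 0.463 when each library was left out in turn. With library totals the log2 fold changes were 1.75 (SE 0.35, edgeR FDR = 0.00292) and -1.80 (SE 0.53, edgeR FDR = 0.0179).

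The 3p arm of miR-33 was higher than the 5p arm in 6 libraries, equal in 2 and lower in 1. Over all libraries the 5p arm held 36 counts and the 3p arm 67, so that the 5p share was 35.0% (exact 95% binomial interval 25.8% to 45.0%). The pooled share was 40.9% in control, 31.0% in TAA and 39.1% in recovery livers, with intervals that overlapped. For miR-107 the 3p arm held 16630 of 16631 counts. Taking 3 counts as the limit that a count of 0 allows, the 0 of 5256 counts of the 5p arm in control livers allow a share of up to 0.0571%, and the 0 of 5947 in recovery livers up to 0.0504%.

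The miRNAs with the profile most like each guide strand were sought among 223 known miRNAs with a mean of at least 10 CPM, by the root mean square difference of centred log2(CPM + 1) over the 9 libraries. For miR-103-3p they were miR-423-5p (0.0906), miR-92a-3p (0.0923) and let-7b-5p (0.109), against a median of 0.435 over the candidates. For miR-107-3p they were miR-126a-5p (0.110), miR-126b-3p (0.110) and let-7a-5p (0.118), against a median of 0.489. miR-126a-5p and miR-126b-3p had nearly equal values in every group, such as 784.8 and 784.7 CPM in control livers, and cannot be treated as separate measurements. miR-126a-5p is known from endothelial cells, and its mean level was 785, 475 and 797 CPM in control, TAA and recovery livers.

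For miR-802-5p the closest were miR-191-5p (0.239), miR-450a-5p (0.240) and miR-221-3p (0.246), against a median of 0.503, which is a much looser match. The miR-802-5p profile itself had an SD of 0.285 on this scale, close to these differences, so the match says little. miR-191-5p was nearly flat, at 1158, 1201 and 1191 CPM in control, TAA and recovery livers. For miR-33-5p they were miR-140-5p (0.142), miR-28a-3p (0.155) and miR-340-3p (0.160). At 1 to 8 counts its own profile had an SD of only 0.177 on this scale, close to these differences, so the match says little.

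Other miRNAs known to act on sterol and lipoprotein genes did not move in one direction. Of 15 listed, 12 were tested; in TAA vs control with TMM scaling 2 were called higher and 2 lower, where 41.7% of all tested miRNAs were called, with a median log2 fold change of -0.20 beside 0.11 over all tested miRNAs. The highest was miR-96-5p (1.71, SE 0.27, edgeR FDR = 0.00159), known to repress the HDL receptor Scarb1, and the lowest was the hepatocyte miRNA miR-122-5p (-1.96, SE 0.06, edgeR FDR = 7.23e-07), which sustains cholesterol synthesis. With library totals 5 were called higher and 0 lower (58.3% of all called), and miR-122-5p stood at -0.84 with a fold change under 2. In recovery vs TAA 2 were called higher and 2 lower with TMM scaling (24.8% of all called), among them miR-122-5p (1.68, SE 0.19, edgeR FDR = 0.000540) and miR-96-5p (-1.91, SE 0.29, edgeR FDR = 0.00207), and 0 higher and 5 lower with library totals (47% of all called).

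Among 11 miRNAs known to act on insulin signalling or glucose genes, all tested, 2 were called higher and 4 lower in TAA vs control with TMM scaling (41.7% of all called), with a median log2 fold change of -0.52. The 4 called lower were miR-29b-3p and miR-29c-3p, of the same family, and miR-378a-3p and miR-378a-5p, the arms of the same hairpin. They are thus not 4 independent miRNAs. The highest was miR-34a-5p (2.66, SE 0.19, edgeR FDR = 0.000104), a p53-induced miRNA that represses Sirt1. The lowest was miR-29c-3p (-2.18, SE 0.19, edgeR FDR = 0.000114), a member of the collagen-repressing miR-29 family. In recovery vs TAA with TMM scaling 2 were called higher and 1 lower (24.8% of all called). With library totals 1 was called higher and 4 lower in that comparison (47% of all called). On the TMM scale miR-34a-5p and miR-29c-3p stood at -2.52 (SE 0.15, edgeR FDR = 0.000130) and 1.94 (SE 0.22, edgeR FDR = 0.000593) there. With library totals 5 of the 11 were called higher and 1 lower in TAA vs control (58.3% of all called), and miR-29c-3p (-1.06, edgeR FDR = 0.00225) was the one still called lower.

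The miR-15/16 family, which represses cyclins, shares the hexamer AGCAGC with miR-103 and miR-107 but shifted by 1 base, so that the seeds differ. Members at the ends of the list are shown with the abundant miR-16-5p, seed in capitals:
miR-16-5p: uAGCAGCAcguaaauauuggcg
miR-15a-5p: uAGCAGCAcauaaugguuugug
miR-503-5p: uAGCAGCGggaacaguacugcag

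The list of 7 miRNAs was drawn up by the shifted hexamer. It includes miR-503-5p, whose seed AGCAGCG is shared with no other mouse miRNA of the RefSeq table. All 7 were tested. In TAA vs control with TMM scaling 2 were called higher and 0 lower, where 41.7% of all were called, with a median log2 fold change of 0.77. DESeq2 also called 2 higher and 0 lower. The highest was miR-503-5p (1.14, SE 0.30, edgeR FDR = 0.0152) and the lowest miR-15a-5p (-0.85, SE 0.17, edgeR FDR = 0.00462), which is close to miR-107-3p (-0.88). miR-16-5p stood at -0.56 (SE 0.12, edgeR FDR = 0.00621). With library totals 5 were called higher and 0 lower (58.3% of all called), and miR-15a-5p was at 0.27 (edgeR FDR = 0.205). In recovery vs TAA 0 were called higher and 1 lower with TMM scaling (24.8% of all called). With library totals 0 were called higher and 5 lower (47% of all called).

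In recovery vs control none of these 3 lists had a called member with edgeR on either scale or with DESeq2. Over all tested miRNAs edgeR called 11.3% with TMM scaling and 12.5% with library totals. With TMM scaling 0 of 12 sterol, 2 of 11 insulin and 2 of 7 hexamer miRNAs had an unadjusted p under 0.05. At an FDR under 0.05, a stricter cut, 14.1% of all tested miRNAs passed, so these counts are not read as a result. The medians were -0.15, -0.06 and 0.17 beside -0.03 over all tested miRNAs.

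Markers of several liver cell types differed between the groups along with the values above, and their part in these results was not tested. The 3 hepatocyte miRNAs, which were far above 0 in every library of this liver tissue, summed to 361776 to 376828 CPM in control, 107376 to 113874 in TAA and 273024 to 401649 in recovery livers; in TPM the ranges were 273164 to 298472, 163104 to 175763 and 242229 to 307701. With TMM scaling all 3 were called lower in TAA vs control, and with library totals 0 of 3 were. Beside these and the marker counts that follow, 41.7% of all tested miRNAs were called with TMM scaling. With library totals 58.3% were called, and 241 of those 245 were higher in TAA. The 3 biliary miRNAs summed to 565 to 740, 3249 to 5470 and 1203 to 1371 CPM, and all 3 were called higher in TAA vs control on both scales. Of 5 mesenchymal miRNAs 3 (miR-199a-3p, miR-199a-5p and miR-214-3p) were called higher in TAA vs control with TMM scaling and 4 with library totals. With TMM scaling miR-143-3p (-0.02) and miR-145a-5p (-0.25) were not called. The 5 summed to 25482 to 31112, 18034 to 39509 and 21871 to 35804 CPM, with overlap between the groups. Of 5 leukocyte miRNAs 1 was called higher with TMM scaling. With library totals 5 were, with a median log2 fold change of 1.87 beside 1.23 over all tested miRNAs. Their sum was 196 to 224, 286 to 330 and 156 to 234 CPM.

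The 2 endothelial miRNAs summed to 8478 to 8952 CPM in control, 5700 to 6896 in TAA and 8348 to 9123 in recovery livers, with neither called in TAA vs control on either scale. Of 3 red cell miRNAs 1 was called lower in TAA vs control with TMM scaling (41.7% of all called). With library totals 0 were (58.3% of all called), and their sum was 789 to 1339, 206 to 461 and 329 to 622 CPM. None of the markers was at 0 in all libraries of a group. In whole liver, fewer cells of a type and less of a miRNA per cell cannot be told apart.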

How the data were processed

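Small RNA libraries of 9 mouse livers (3 groups of 3, assigned by the sample labels) were analysed. The authors mapped reads with Bowtie 1.3.0 to mm10 and to miRBase and deposited 1 table of read counts, not normalized, and of TPM per mature miRNA. The deposited TPM equalled the count divided by the library total (largest difference 5e-05 TPM). The treatment of reads matching several miRNAs is not given in the sources used here. In the authors' work DESeq2 was the test; here the counts were tested with edgeR 4.0.16 in R 4.3.3 (filterByExpr with a minimum count of 10, TMM factors, quasi-likelihood F test, the 6 libraries of each comparison), and p-values were adjusted by Benjamini-Hochberg over all tested rows and reported as FDR. A miRNA was called when its FDR was under 0.05 and it changed at least 2-fold. The SE was the size of the log2 fold change divided by the square root of F. The test was checked on counts simulated with equal numbers of raised and lowered miRNAs, a setting that does not address the choice of scale. Library totals, DESeq2 1.42.0, other filters, a fit of all 9 libraries, a replicate block, summing miR-103-3p with miR-107-3p and leaving out each library were alternatives.

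Within-library ratios (pseudocount 0.5 counts) and arm shares were compared by exact two-sided permutation tests. Depth was 9071847 to 12983378 counts per library, and counting intervals cover counting error only. The members, lists and markers were chosen with earlier results of these data known. Members were described one by one where at least 3 libraries had 10 or more counts. miR-33-5p was added as the usual guide strand of miR-33, although over all libraries it held fewer counts than the 3p arm. Of each list the highest and lowest in TAA vs control were named, and the 3 miRNAs nearest to each guide strand. miR-16-5p and miR-191-5p were singled out after their values were seen. The arm share of miR-103 was not analysed here, since its 5p arms are not among the rows used.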

Additional observations from a re-analysis of the deposited data

How the results depend on the processing

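The scale was the choice that mattered most. With library totals in place of TMM factors the called members became 3 (TAA vs control) and 2 (recovery vs TAA), miR-33-3p among them in both, which passed the filter only through its high group. The log2 fold change of miR-103-3p became 0.72 in TAA vs control, -0.59 between recovery and TAA and 0.13 between recovery and control, that of miR-107-3p 0.24, -0.20 and 0.042 in the same order, and that of miR-802-5p in recovery vs TAA -0.72, all of the opposite sign. Restricting the fit to miRNAs with a mean of at least 10 CPM gave -0.014 for miR-802-5p in recovery vs TAA and 0.021 for miR-103-3p in recovery vs control. DESeq2, its size factors in edgeR, no filter, the fit of all 9 libraries and summed miR-103-3p and miR-107-3p gave 0 called members in each comparison, and changed no sign. Leaving out each library in turn gave 0 to 1 called members in TAA vs control (1 without control replicate 1) and 0 to 1 in recovery vs TAA (1, miR-33-3p, without recovery replicate 2). Under it, miR-802-5p ran from -0.065 to 0.27 in TAA vs control and from -0.041 to 0.41 in recovery vs TAA, and miR-103-3p from -0.13 to 0.00091 in recovery vs control. The log2 ratio of miR-802-5p to miR-103-3p ran from -0.40 to 0.017 in recovery vs TAA, and that of miR-33-5p to miR-103-3p from -0.22 to 0.93 in TAA vs control and from -0.80 to 0.35 in recovery vs control. The difference in the 5p share of miR-33 ran from -19.9 to 3.06 percentage points in TAA vs control and from -6.41 to 16.5 in recovery vs control, and that of miR-802 from -6.07 to 1.19 in recovery vs control. The difference in the log2 ratio of miR-103-3p to miR-107-3p kept its sign, from 0.39 to 0.54 in TAA vs control. The cause of these shifts was not tested.

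Replicate numbers are shared between groups but mark different mice, and deviations of same-numbered libraries correlated at -0.24 to 0.24, so the numbers were not taken as pairs. With the replicate block 0 members were called in each comparison, and the FDR of miR-103-3p in TAA vs control was 0.0614. Planned shares of the 5p arms of miR-103 were not run, since these arms are not among the rows used. Depth limits both arms of miR-33 and miR-107-5p most, and with 3 livers a group no permutation test could pass 0.05.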
